A study of Homo sapiens with 15 samples.

Results

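The keratin family is described here in 3 triple negative breast cancer lines. Its members are the genes whose symbol is KRT, a number and at most 1 letter from A to C, and 55 of the 33158 genes in the table met that rule, 29 type I and 26 type II keratins. RNA selected for poly(A) tails was sequenced from 15 libraries in 5 groups of 3. SUM149PT, from an inflammatory carcinoma, and HCC1937, from a ductal carcinoma, were each sorted into cancer stem cells (CSCs, CD44+ with low or absent CD24) and non-CSCs, while SUM159PT, from an anaplastic carcinoma, was not sorted and was labelled cancer stem cells. HCC1937 was grown in another medium than the SUM lines, so medium and line cannot be told apart. The labels give no genotype or treatment that separates the groups, and they do not say whether the 3 replicates of a group were separate cultures or sorts, so every p below measures the spread between these libraries only.

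Keratins are the intermediate filament proteins of epithelial cells. A filament is built from pairs of a type I (acidic) and a type II (basic) chain, and partners are usually made together: KRT5 with KRT14 in basal cells, KRT8 with KRT18 in simple and luminal epithelium, and KRT6 with KRT16 or KRT17 in wounded or rapidly dividing epithelium. In the breast, KRT5, KRT14 and KRT17 are used to mark basal cells and basal-like tumours, and KRT8, KRT18 and KRT19 to mark luminal cells.

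Levels are deposited FPKM, fragments scaled for transcript length and for the number mapped, which allow keratins to be compared per length. The read depth behind the libraries is not known from such values, so no counting interval can be given. Tests were made on log2(FPKM + 0.1), a scale that understates the change of a gene with low values, and only for genes whose mean over the fitted libraries reached 0.1 FPKM. A gene is called here where its p, adjusted over all genes tested, was at most 0.05 and its log2 difference was at least 1 in size. Keratins are named with values where a group mean reached 1 FPKM, which 21 of the 55 did. The named keratins nearest that limit were KRT13, KRT79 and KRT9, with highest group means of 3.76, 1.28 and 1.22 FPKM, and the nearest outside were KRT4, KRT222 and KRT78, with 0.621, 0.269 and 0.204 FPKM. Of the other 34 members, 16 were listed at 0 in all 15 libraries and 18 had some signal, at most 0.809 FPKM for KRT4 in 1 library.

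The SUM149PT comparison tested 24 keratins and called 16 of them, 2 higher and 14 lower in CSCs. Among all 16037 genes tested there, 34.9% were called, 12.8% higher and 22.1% lower. The median log2 difference of CSCs from non-CSCs was -2.37 over the keratins tested and -0.11 over all genes. In HCC1937, 14 of the 23 keratins tested were called, 1 higher and 13 lower, where 8.71% of 15582 genes were called, 2.71% higher and 6% lower. The medians there were -1.22 for keratins and -0.03 for all genes. The other 31 and 32 members lay under the minimum in the respective line. The sign of the CSC effect was the same for every named keratin tested, in both lines, under TPM rescaling, upper quartile scaling and quantile normalization. Quantile normalization moved the median of all genes by 0.21 in SUM149PT, and TPM rescaling moved it by 0.12 in HCC1937. In bulk libraries, fewer cells making a keratin and less keratin RNA in each cell cannot be told apart.

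**Figure D1:**
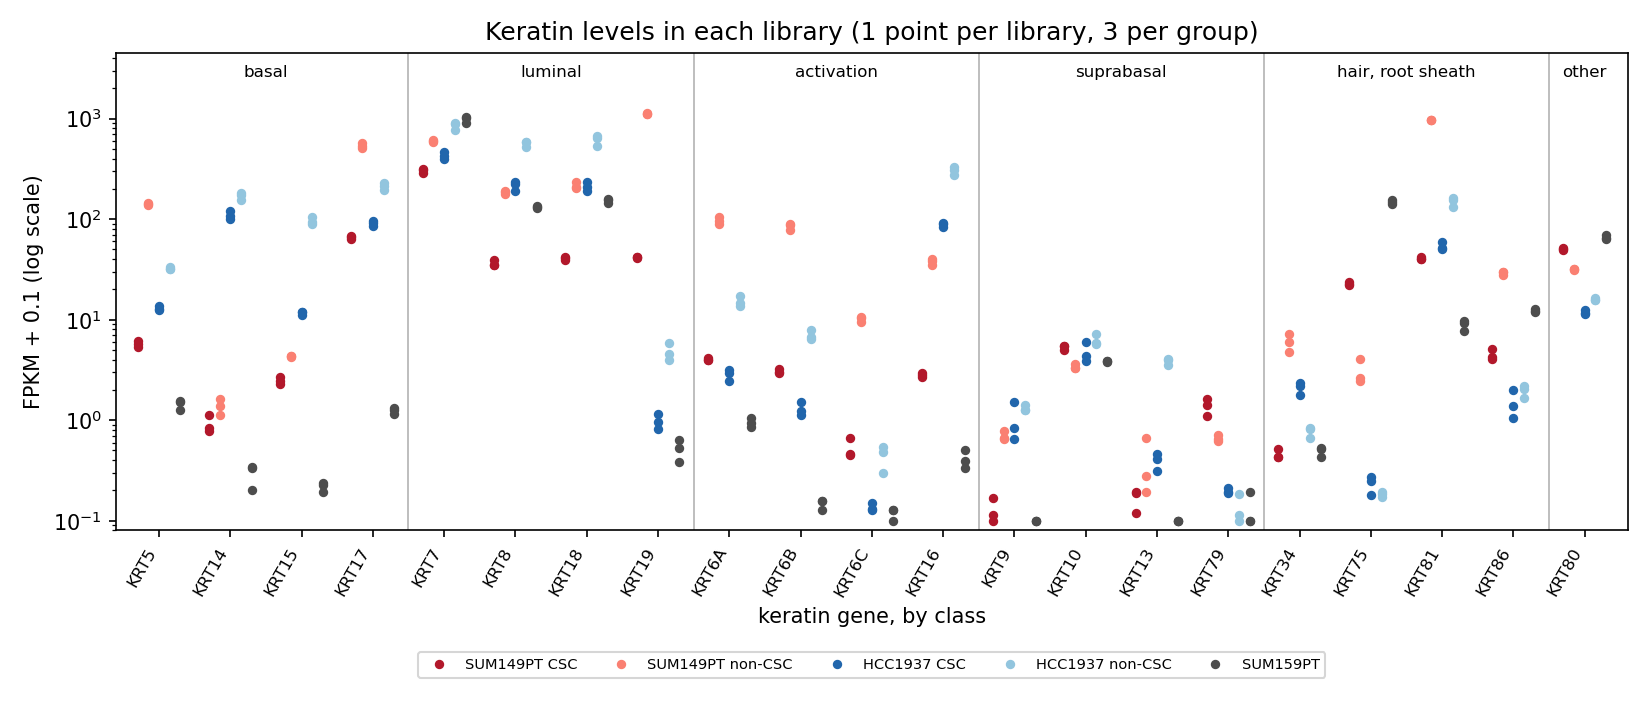
FPKM + 0.1 (log axis) of the 21 named keratins, by class, in each of the 15 libraries, 3 points for each of 5 groups, so that values listed at 0 lie at 0.1. KRT7 had a mean above 300 FPKM in every group, whereas KRT19 ran from 0.415 FPKM in SUM159PT to 1127 FPKM in SUM149PT non-CSCs.

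KRT5, the type II keratin of basal cells, stood at 6.04, 5.58 and 5.30 FPKM in the SUM149PT CSC libraries and at 137, 145 and 142 FPKM in the non-CSC libraries. It fell by 4.62 on the log2 scale (SE 0.07, adjusted p = 1.4e-06). Every CSC library lay far under every non-CSC library, and the non-CSC mean was 25.1 times the CSC mean. HCC1937 had 12.3, 12.7 and 13.6 FPKM in CSCs and 33.4, 32.0 and 31.8 FPKM in non-CSCs, a log2 difference of -1.33 (SE 0.07, adjusted p = 0.000244). The HCC1937 fractions were also separate, with a ratio of 2.52. The KRT5 promoter is shown because the gene was called in both lines and the RefSeq table for GRCh38.p14 had its window at the annotated gene end. KRT8 and KRT34, also called in both, have windows that are set on starts inside the spans of the genes and are not printed. The window of 300 bases, chr12:52520345-52520644 on the minus strand, runs from 250 bases before the start to 50 after it. Capitals mark the 1 match to the motifs searched, CAGGTG, the reverse complement of CACCTG, at position -130 from the start.
KRT5: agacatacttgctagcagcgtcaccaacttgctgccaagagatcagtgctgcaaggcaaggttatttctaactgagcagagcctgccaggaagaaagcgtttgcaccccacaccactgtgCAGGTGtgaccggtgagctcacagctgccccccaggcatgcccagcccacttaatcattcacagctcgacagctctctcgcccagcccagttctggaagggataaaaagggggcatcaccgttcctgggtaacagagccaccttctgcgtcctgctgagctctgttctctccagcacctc

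The motifs were searched on both strands in 35116 promoter windows and in the 34 keratin windows the table held. Of these 34, 7 are windows of named keratins, and the others belong to members under the naming limit. CACCTG, the E-box letters bound by SNAIL and ZEB factors, was in 20.6% of all windows and in 8 keratin windows (23.5%). TATAAA, the TATA box, was in 11.5% of all windows and in 20 keratin windows (58.8%). GGGCGG, the letters of SP1 and KLF factors, was in 45.0% of all windows and in 6 keratin windows (17.6%). GCCNNNGGC, for AP-2, was in 23.2% and in 5 keratin windows (14.7%), and TGANTCA, for AP-1, in 7.71% and in 0 keratin windows. These are matches of letters, and binding was not measured.

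KRT14, the type I partner of KRT5, was low in SUM149PT, at 1.03, 0.690 and 0.743 FPKM in CSCs and 1.52, 1.03 and 1.29 FPKM in non-CSCs. Those fractions overlapped in range, and the log2 difference was -0.59 (SE 0.19, adjusted p = 0.0337). That p passed 0.05 with all 6 libraries and missed it under each scaling tried, at 0.0593 with TPM rescaling, 0.0509 with upper quartile scaling and 0.591 with quantile normalization. The log2 difference was -0.58, -0.52 and -0.12 under these scalings in that order. The p also missed 0.05 with no minimum level (0.12) and without CSC replicate 2 (0.0984), CSC replicate 3 (0.095), non-CSC replicate 1 (0.0952) or non-CSC replicate 3 (0.0862). In those fits the log2 difference lay between -0.59 and -0.46. HCC1937 had far more KRT14, 119, 108 and 99.7 FPKM in CSCs and 175, 180.1 and 155 FPKM in non-CSCs, a log2 difference of -0.64 (SE 0.10, adjusted p = 0.00746). The HCC1937 fractions did not overlap. The CSC effect on KRT14 differed by 0.06 between the lines (adjusted p = 0.847), a difference not called, whose sign changed under TPM rescaling.

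KRT15, a type I keratin of basal cells, was at 2.34, 2.62 and 2.22 FPKM in SUM149PT CSCs and 4.22, 4.21 and 4.12 FPKM in non-CSCs, with a log2 difference of -0.78 (SE 0.08, adjusted p = 0.000218). In HCC1937 it was at 11.03, 11.9 and 11.9 FPKM in CSCs and 105, 94.3 and 89.5 FPKM in non-CSCs, and fell by 3.04 (SE 0.09, adjusted p = 0.000128). The fractions were separate in both lines, and KRT15 had the lowest adjusted p of any keratin in HCC1937. KRT17, a type I keratin of basal and activated cells, was at 63.7, 68.2 and 67.1 FPKM in SUM149PT CSCs and 569.8, 539 and 512 FPKM in non-CSCs. Its log2 difference was -3.02 (SE 0.07, adjusted p = 1.98e-06). HCC1937 had 96.6, 92.2 and 86.02 FPKM and 228, 216 and 197 FPKM in the same order, a log2 difference of -1.22 (SE 0.09, adjusted p = 0.000554). No KRT17 CSC library reached a non-CSC library of its line.

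KRT7, a type II keratin of simple epithelium, was the highest keratin in 4 of the 5 groups. It stood at 305, 318 and 289 FPKM in SUM149PT CSCs and 603, 582 and 607 FPKM in non-CSCs, and at 469, 429 and 401 FPKM and 893, 910.4 and 769 FPKM in HCC1937. The log2 differences were -0.97 in SUM149PT (adjusted p = 3.83e-05) and -0.98 in HCC1937 (adjusted p = 0.00175), both just under the limit of 1 in size. Leaving out SUM149PT CSC replicate 2 (-1.01), HCC1937 CSC replicate 1 (-1.04) or HCC1937 non-CSC replicate 3 (-1.06) took KRT7 past that limit, as did quantile normalization in SUM149PT (-1.09). Both lines had all KRT7 CSC libraries under all non-CSC libraries. The effect on KRT7 differed by 0.01 between the lines (adjusted p = 0.95), with the other sign under TPM rescaling and quantile normalization.

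KRT8, the type II chain of luminal filaments, was at 34.6, 39.5 and 34.9 FPKM in SUM149PT CSCs and 191, 187 and 179.7 FPKM in non-CSCs, a log2 difference of -2.35 (SE 0.07, adjusted p = 4.12e-06). HCC1937 had 232, 222.23 and 192 FPKM in CSCs and 592, 589 and 523 FPKM in non-CSCs, a log2 difference of -1.40 (SE 0.10, adjusted p = 0.000595). The CSC libraries were the low ones in both lines, with no overlap. KRT18, its type I partner, was at 39.5, 41.8 and 41.4 FPKM in SUM149PT CSCs and 204, 208 and 233 FPKM in non-CSCs. HCC1937 had 237, 208 and 192 FPKM and 636, 669.8 and 529 FPKM in that order. KRT18 fell by 2.39 (adjusted p = 3.82e-06) and by 1.52 (adjusted p = 0.000882), close to KRT8 in each line. The difference of the CSC effect between lines was -0.95 for KRT8 (adjusted p = 9.86e-05) and -0.87 for KRT18 (adjusted p = 0.000629), past the p limit and under the fold limit. The KRT8 difference passed the fold limit under TPM rescaling and without SUM149PT CSC replicate 2 or HCC1937 CSC replicate 3.

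KRT19, a small type I keratin of luminal cells, had the widest range of group means in FPKM. SUM149PT held 42.4, 41.1 and 42.3 FPKM in CSCs and 1151, 1107 and 1123 FPKM in non-CSCs, where it was the highest keratin, a log2 difference of -4.75 (SE 0.05, adjusted p = 1.4e-06). HCC1937 held 0.868, 1.06 and 0.723 FPKM in CSCs and 4.47, 5.73 and 3.92 FPKM in non-CSCs, a log2 difference of -2.29 (SE 0.19, adjusted p = 0.000834). KRT19 was lower in all CSC libraries of both lines, and the HCC1937 non-CSC libraries still lay under the SUM149PT CSC libraries. KRT20, the remaining luminal member, did not reach the naming limit.

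The activation keratins KRT6A, KRT6B, KRT6C and KRT16 are made in wounded epithelium and in appendages. All 4 were called lower in CSCs of both lines, where 22.1% of all genes in SUM149PT and 6% in HCC1937 were called lower. KRT6A, KRT6B and KRT6C share stretches of sequence, given below, and are not fully separate readings. KRT6A was at 4.06, 3.91 and 3.91 FPKM in SUM149PT CSCs and 105, 96.8 and 90.4 FPKM in non-CSCs, and at 2.35, 2.84 and 3.09 FPKM and 17.1, 13.6 and 14.4 FPKM in HCC1937. KRT6B was at 2.84, 2.88 and 3.13 FPKM and 89.2, 88.0 and 78.4 FPKM in SUM149PT, and at 1.04, 1.42 and 1.14 FPKM and 7.82, 6.60 and 6.34 FPKM in HCC1937. The log2 differences were -4.58 and -2.40 for KRT6A and -4.80 and -2.44 for KRT6B, the last 2 with adjusted p of 1.49e-06 and 0.000308. KRT6C was lower throughout, 0.350 to 0.567 FPKM against 9.40 to 10.5 FPKM in SUM149PT and 0.0292 to 0.0511 FPKM against 0.201 to 0.444 FPKM in HCC1937. No KRT6 gene overlapped between fractions. The HCC1937 call of KRT6C was lost with a pseudocount of 1, and a minimum mean of 1 FPKM left the gene untested there. KRT16, the type I partner of KRT6, was at 2.60, 2.87 and 2.70 FPKM in SUM149PT CSCs and 38.2, 35.3 and 39.7 FPKM in non-CSCs, a log2 difference of -3.74 (SE 0.07, adjusted p = 1.66e-06). In HCC1937 it was at 90.0, 92.3 and 84.3 FPKM and 327, 309.6 and 272 FPKM, a log2 difference of -1.77 (SE 0.09, adjusted p = 0.000245). KRT16 was the 4th highest keratin of HCC1937 non-CSCs.

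Near copies limit how firmly single genes can be read, since reads could be split between them. Of all stretches of 50 bases in the GENCODE transcript, 39.1% of KRT6A, 47.1% of KRT6B and 53.6% of KRT6C also occurred in transcripts of other genes. The share was 23.8% for KRT14, 22.0% for KRT16, 16.0% for KRT17, 28.9% for KRT18, 44.6% for KRT81 and 40.5% for KRT86. It was under 5% for 11 of the 21 named keratins, among them KRT5 (3.99%), KRT8 (1.88%), KRT19 (1.79%), KRT7 (0.997%) and KRT75 (0.0440%).

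Suprabasal keratins, made as cells leave the basal layer, were scarce: 4 of the 13 members reached the naming limit. KRT10 was at 5.34, 4.95 and 5.38 FPKM in SUM149PT CSCs and 3.24, 3.21 and 3.54 FPKM in non-CSCs, a log2 difference of 0.63 (SE 0.07, adjusted p = 0.000354), with the CSC libraries above. In HCC1937 it was at 5.86, 4.29 and 3.74 FPKM and 5.75, 7.17 and 5.62 FPKM, with overlapping fractions and an adjusted p of 0.17. KRT13, of mucosal linings, was at 0.357, 0.210 and 0.313 FPKM in HCC1937 CSCs and 3.84, 3.97 and 3.48 FPKM in non-CSCs, a log2 difference of -3.31 (SE 0.16, adjusted p = 0.000195) with no overlap. SUM149PT had at most 0.565 FPKM of KRT13, in 1 non-CSC library. KRT9, of palm and sole skin, was at 0, 0.0137 and 0.0671 FPKM in SUM149PT CSCs and 0.569, 0.676 and 0.554 FPKM in non-CSCs, and was called there (-2.49, adjusted p = 0.000115). HCC1937 had 0.733, 0.544 and 1.41 FPKM in CSCs and 1.32, 1.16 and 1.17 FPKM in non-CSCs, with overlap and no call (-0.49, adjusted p = 0.314). Without HCC1937 CSC replicate 3 the KRT9 difference was -0.84 (adjusted p = 0.02), still under the fold limit. KRT79 was one of the 2 keratins called higher in SUM149PT CSCs, 0.997, 1.30 and 1.53 FPKM against 0.518, 0.553 and 0.613 FPKM, with a log2 difference of 1.04 (SE 0.16, adjusted p = 0.00149). That call was lost on the fold limit without CSC replicate 3 (0.91) or non-CSC replicate 1 (0.99). The calls of KRT9, KRT79 and KRT78 in SUM149PT were lost with a pseudocount of 1, and a minimum mean of 1 FPKM left the 3 untested. KRT78 and KRT4, not named by level, were the remaining called members: KRT78 in SUM149PT (-1.20) and KRT4 in HCC1937 (-1.08), the latter with an adjusted p of 0.048. The KRT4 call was lost under the 3 scalings, without any 1 HCC1937 library other than non-CSC replicate 3, and also with no minimum, with pseudocounts of 0.01 and 1, with an eBayes trend and with the replicate block. The KRT78 call was lost under quantile normalization, and the gene was not tested without SUM149PT non-CSC replicate 3.

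Of the 26 keratins of hair and the inner root sheath, 4 reached the naming limit. KRT81, a type II hair keratin, was at 40.1, 42.1 and 40.4 FPKM in SUM149PT CSCs and 977, 961 and 964 FPKM in non-CSCs, the second highest keratin of that group. It fell by 4.56 (SE 0.05, adjusted p = 1.4e-06). HCC1937 had 59.5, 51.3 and 50.6 FPKM and 164, 153 and 131 FPKM, a log2 difference of -1.47 (SE 0.12, adjusted p = 0.000754), and no library of the fractions overlapped in either line. KRT86, whose span on chromosome 12 contains KRT81, was at 3.97, 4.15 and 4.97 FPKM and 27.9, 29.7 and 30.0 FPKM in SUM149PT, and was called there (-2.72, adjusted p = 6.48e-06). In HCC1937 its fractions overlapped, at 1.29, 1.91 and 0.956 FPKM and 1.56, 1.94 and 2.09 FPKM.

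KRT75, a type II keratin of the hair follicle's companion layer, went the other way in SUM149PT, with 22.6, 23.8 and 22.0 FPKM in CSCs and 2.53, 2.33 and 3.93 FPKM in non-CSCs. It rose by 2.95 (SE 0.20, adjusted p = 5.37e-05), and all CSC libraries were above all non-CSC libraries. In HCC1937 it was near the minimum, at 0.170, 0.147 and 0.0823 FPKM and 0.0946, 0.0835 and 0.0734 FPKM. KRT34, a type I hair keratin, was at 0.331, 0.417 and 0.334 FPKM in SUM149PT CSCs and 5.92, 7.08 and 4.70 FPKM in non-CSCs, a log2 difference of -3.69 (SE 0.17, adjusted p = 1.26e-05). HCC1937 had 2.10, 1.69 and 2.26 FPKM in CSCs and 0.725, 0.564 and 0.745 FPKM in non-CSCs, a log2 difference of 1.44 (SE 0.15, adjusted p = 0.0017). KRT34 thus moved in opposite directions, low in CSCs of SUM149PT and high in CSCs of HCC1937, without overlap, though its HCC1937 call was lost with a pseudocount of 1. The KRT75 and KRT79 promoters are shown because both genes were called higher in CSCs of SUM149PT, unlike most called keratins. Both windows have 300 bases from RefSeq GRCh38.p14 on the minus strand, chr12:52434322-52434621 for KRT75 and chr12:52834262-52834561 for KRT79. Capitals mark every motif match: in KRT75 GCCAGTGGC at -153, CCGCCC at -50, CACCTG at -1 and CAGGTG at 35, and in KRT79 CAGGTG at -168.
KRT75: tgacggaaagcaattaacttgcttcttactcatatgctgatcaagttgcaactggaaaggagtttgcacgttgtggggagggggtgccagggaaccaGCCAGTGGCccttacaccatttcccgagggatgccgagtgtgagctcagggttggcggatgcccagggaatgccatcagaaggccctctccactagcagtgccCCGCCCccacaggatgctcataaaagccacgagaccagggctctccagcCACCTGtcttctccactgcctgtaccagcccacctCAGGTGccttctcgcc
KRT79: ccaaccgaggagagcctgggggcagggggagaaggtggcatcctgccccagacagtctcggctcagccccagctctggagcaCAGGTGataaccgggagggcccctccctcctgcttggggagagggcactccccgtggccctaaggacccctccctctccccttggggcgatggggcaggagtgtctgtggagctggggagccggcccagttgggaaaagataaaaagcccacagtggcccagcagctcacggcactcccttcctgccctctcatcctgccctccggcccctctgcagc

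KRT80, a type II keratin of many epithelia, was at 49.6, 51.3 and 50.7 FPKM in SUM149PT CSCs and 32.2, 31.7 and 31.4 FPKM in non-CSCs, a log2 difference of 0.67 (SE 0.05, adjusted p = 8.05e-05). In HCC1937 it was at 12.3, 11.4 and 11.4 FPKM and 15.7, 15.6 and 16.5 FPKM, a log2 difference of -0.44 (SE 0.07, adjusted p = 0.00697), which TPM rescaling took to an adjusted p of 0.056. The fractions were separate in both lines, with CSCs above in SUM149PT and below in HCC1937. KRT23 and KRT222 did not reach the naming limit.

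**Figure D2:**
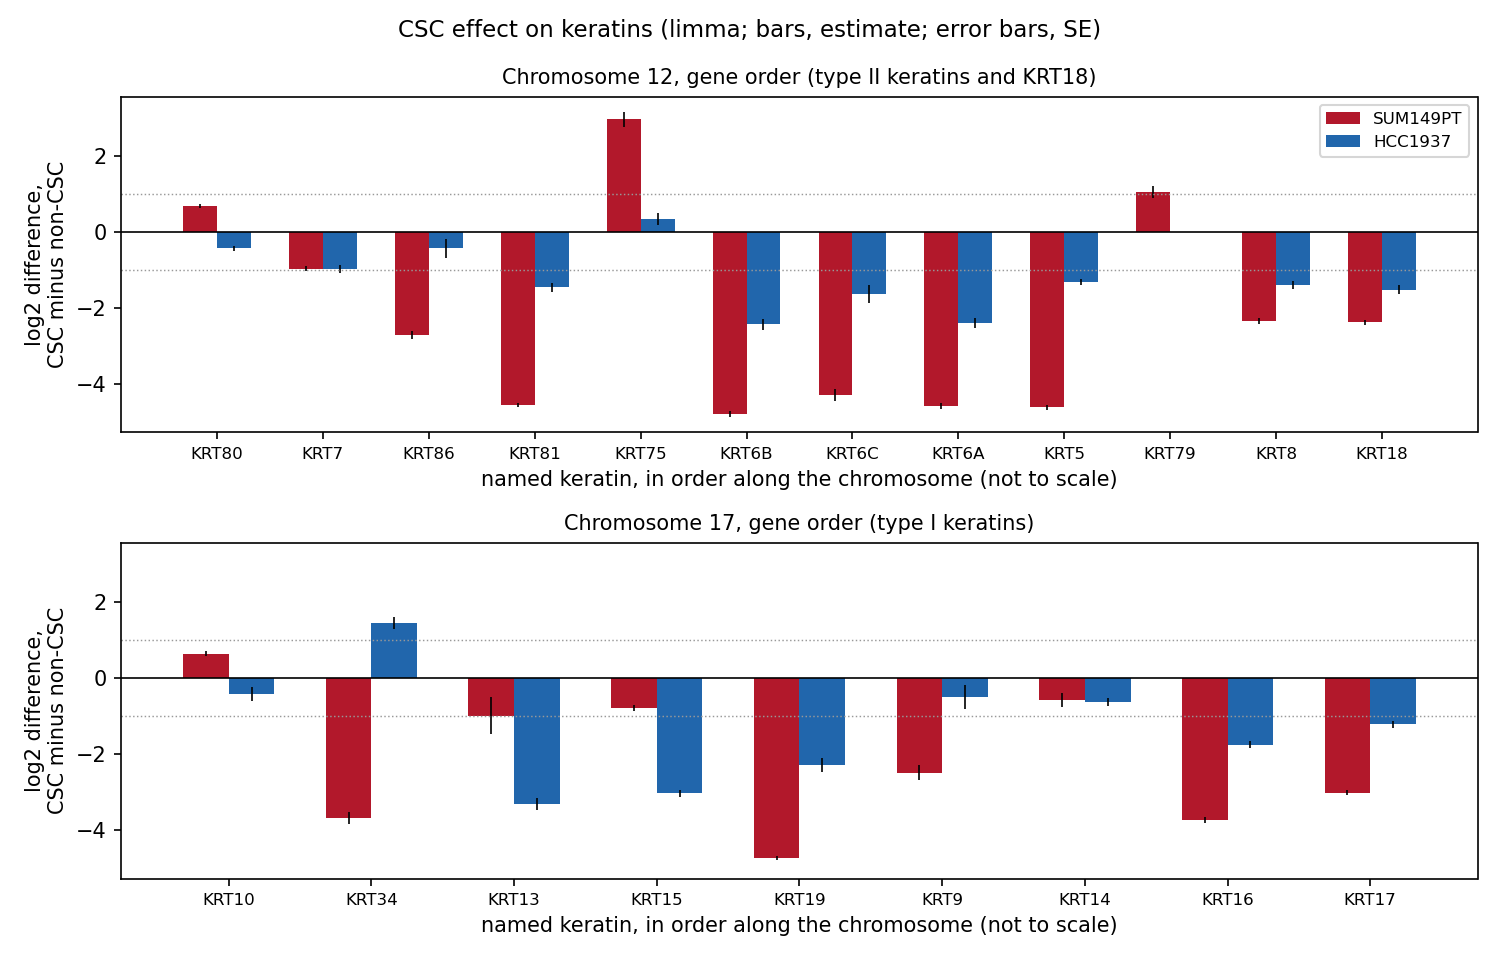
Log2 difference of CSCs from non-CSCs (bars, error bars SE) for the named keratins of chromosomes 12 and 17 in gene order, in SUM149PT and HCC1937, with dotted lines at 1 and -1. KRT34 points down in SUM149PT (-3.69) and up in HCC1937 (1.44), and KRT79 has no HCC1937 bar because it was not tested there.

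Between the lines, 10 keratins were called lower in CSCs of both: KRT5, KRT6A, KRT6B, KRT6C, KRT8, KRT16, KRT17, KRT18, KRT19 and KRT81. They were 71.4% of the 14 in SUM149PT and 76.9% of the 13 in HCC1937. Over all genes, 579 were called lower in both, 16.3% of the SUM149PT list and 61.9% of the HCC1937 list, and whether keratins differ from all genes in this was not tested. The fitted fall of each of the 10 was larger in SUM149PT. The SUM149PT list also had KRT9, KRT34, KRT78 and KRT86, and the HCC1937 list KRT4, KRT13 and KRT15. KRT4 also passed the p limit in SUM149PT (-0.92, adjusted p = 0.0345), and its difference between the lines was not called (0.16, adjusted p = 0.775), while KRT78 was not tested for one. Across the 21 keratins tested in both lines, Pearson's r of the CSC effects was 0.325 and Spearman's rho 0.487, against 0.384 and 0.311 across 14423 genes, given as a description, since keratins are not independent of each other. The difference of the CSC effect between the lines, tested as an interaction, was called for 16 of 23 keratins, 5 higher and 11 lower in SUM149PT, where 30.4% of 16451 genes were called, 12.2% higher and 18.2% lower. The median difference was -0.95 over keratins and -0.08 over all genes, and quantile normalization moved the latter by 0.14. KRT34 (-5.13, adjusted p = 8.48e-08) and KRT5 (-3.30, adjusted p = 7.15e-09) differed most.

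Type I and type II chains enter a filament in equal amounts. The FPKM of partner keratins were set as ratios in each library, a description chosen after the values were seen. KRT8 over KRT18 was between 0.772 and 1.07 in all 15 libraries. KRT5 over KRT14 was 5.84, 8.09 and 7.13 in SUM149PT CSCs and 90.3, 141 and 109.6 in non-CSCs. In HCC1937 the same ratio was 0.103, 0.117 and 0.137 in CSCs and 0.191, 0.177 and 0.205 in non-CSCs. KRT5 thus exceeded KRT14 in every SUM149PT library and was under it in every HCC1937 library. The sum of KRT6A, KRT6B and KRT6C over KRT16 was 2.88, 2.49 and 2.74 in SUM149PT CSCs and 5.35, 5.53 and 4.49 in non-CSCs. It was 0.0380 to 0.0506 in HCC1937 CSCs and 0.0658 to 0.0776 in non-CSCs. KRT7 over KRT19 was 6.84 to 7.74 in SUM149PT CSCs and 0.524 to 0.540 in non-CSCs, so only the non-CSC fraction of that line had more KRT19 than KRT7.

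**Figure D3:**
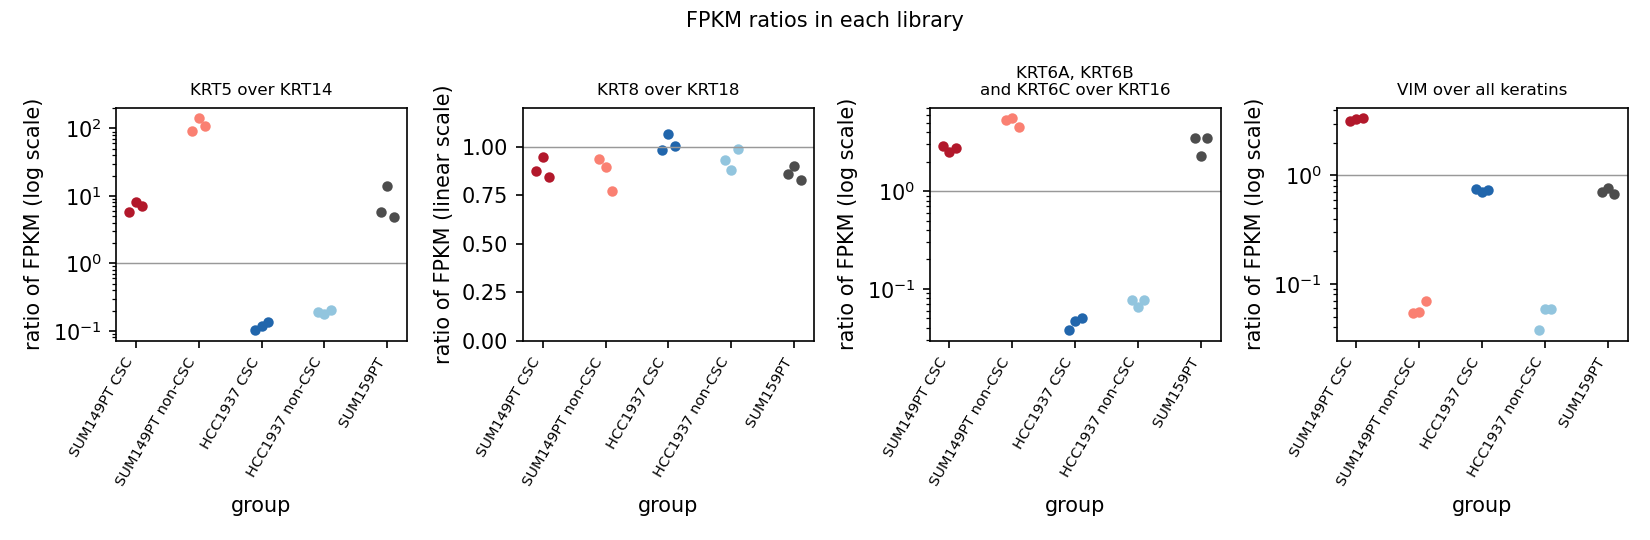
Ratios of FPKM between keratin partners, and of VIM to all keratins, in each library by group, with a linear axis for KRT8 over KRT18 and log axes for the other panels. KRT8 over KRT18 stays between 0.772 and 1.07, whereas mean KRT5 over KRT14 runs from 0.119 in HCC1937 CSCs to 113 in SUM149PT non-CSCs.

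All 55 keratins together made up 0.216, 0.207 and 0.206% of summed FPKM in SUM149PT CSC libraries and 1.29, 1.35 and 1.29% in non-CSC libraries. In HCC1937 they made up 0.392, 0.402 and 0.378% in CSCs and 0.907, 0.876 and 0.834% in non-CSCs. The CSC shares were lower in both lines without overlap, by an exact two-sided permutation test p = 0.1 in each line, the smallest that 3 against 3 libraries can give. The ratio of summed type I to type II keratin FPKM was 0.334, 0.330 and 0.356 in SUM149PT CSCs and 0.909, 0.893 and 0.899 in non-CSCs. It was 0.714, 0.711 and 0.714 in HCC1937 CSCs and 0.863, 0.864 and 0.842 in non-CSCs, again separate in each line with exact p = 0.1. Without KRT18 and KRT7, the most abundant of each sum over the 15 libraries, the HCC1937 difference of -0.143 reversed to 0.0240 (exact p = 0.2). In SUM149PT those 2 were not the most abundant: by mean, KRT19 and KRT17 exceeded KRT18 in both fractions, and KRT81 exceeded KRT7 in non-CSCs. The luminal class, which takes in KRT7, held 66.7% of keratin FPKM in SUM149PT CSCs, 52.0% in non-CSCs, 68.6% in HCC1937 CSCs and 66.7% in non-CSCs. KRT7 alone held 47.9%, 14.6%, 34.5% and 28.02%. KRT8, KRT18 and KRT19 together went the other way, with 18.8% in SUM149PT CSCs and 37.4% in non-CSCs, and 34.1% and 38.7% in HCC1937. Basal keratins held 11.9%, 16.8%, 18.0% and 16.8% in the same order of groups. The hair class was 24.6% of SUM149PT non-CSC keratin FPKM, most of it KRT81, and 10.8% in CSCs.

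**Figure D4:**
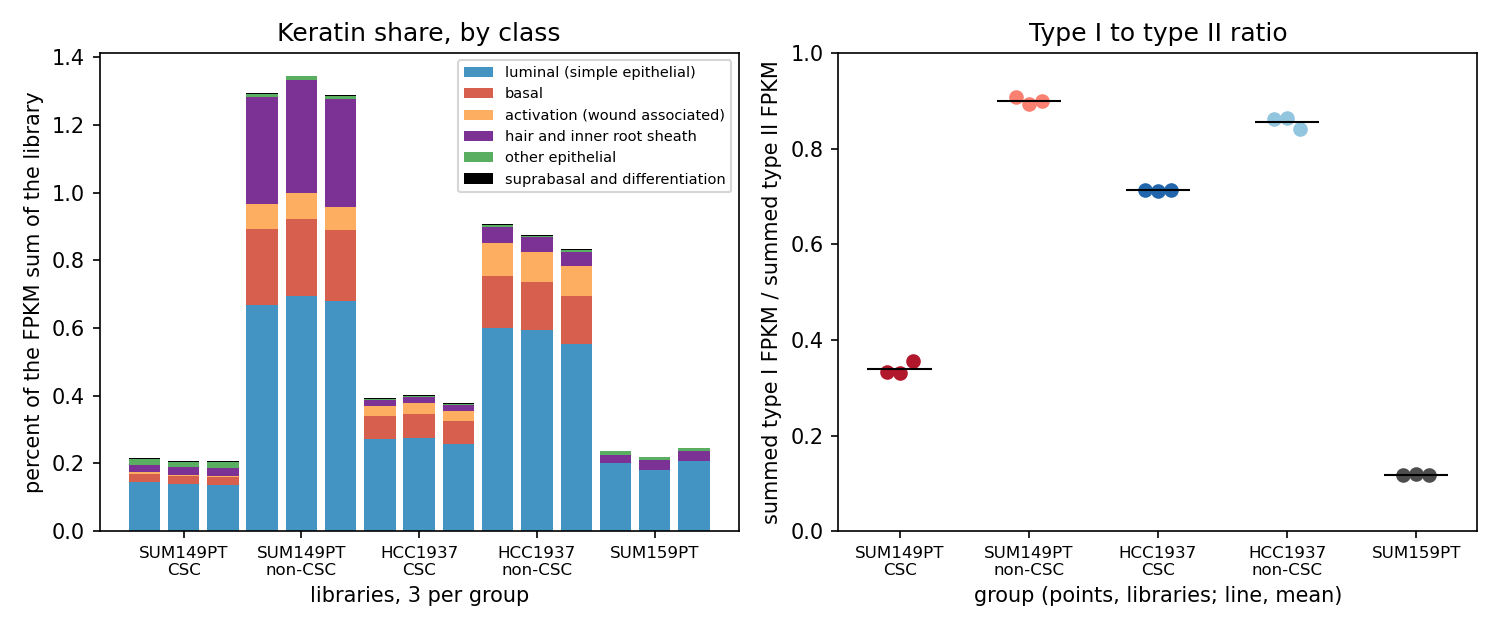
Percent of summed FPKM from the 55 keratins, stacked by class, and the ratio of summed type I to type II keratin FPKM (points, libraries, and line, mean) in each of the 15 libraries by group. SUM149PT non-CSCs have the highest mean share (1.31%) and SUM159PT the lowest type I to type II ratio (0.118).

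The lines were compared within a fraction, where line and medium cannot be told apart. In CSCs, 18 of 23 keratins were called, 10 higher and 8 lower in HCC1937, where 42.8% of all genes were called, 25.7% higher and 17.1% lower. In non-CSCs, 18 of 23 were called, 7 higher and 11 lower, against 42.2% of all genes, 21.9% higher and 20.4% lower. Of all genes called in non-CSCs, 51.8% were higher, against 43.6% under TPM rescaling, 44.2% under upper quartile scaling and 51.7% under quantile normalization. Keratin medians were 0.46 in CSCs and -0.99 in non-CSCs, and those of all genes 0.23 and 0.10. Upper quartile scaling moved the all-gene medians by -0.17 and -0.16, quantile normalization the first by -0.18 and TPM rescaling the second by -0.15. KRT14 was higher in HCC1937 by 6.90 in CSCs (adjusted p = 1.44e-10) and 6.96 in non-CSCs (adjusted p = 2.02e-10). KRT19 was lower in HCC1937, by log2 differences of -5.43 (adjusted p = 3.28e-10) and -7.89 (adjusted p = 5.25e-11). These 2 genes separated all HCC1937 libraries from all SUM149PT libraries, as did KRT15, KRT16, KRT75, KRT80 and KRT86, among others. The share of all genes that do so was not counted. KRT16 and KRT15 were higher in HCC1937 in both fractions (4.98 and 3.00 for KRT16, 2.24 and 4.49 for KRT15), and KRT75 lower (-6.64 and -4.01). KRT5 was higher in HCC1937 CSCs (1.18) and lower in its non-CSCs (-2.12), and its CSC call was lost on the fold limit under upper quartile scaling and quantile normalization.

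SUM159PT, with 1 group only, was set beside the CSC fractions, 2 comparisons that share the SUM159PT libraries. SUM159PT was not sorted, so line and sorting cannot be told apart here. Against HCC1937 CSCs the medium differed as well. The FPKM of SUM159PT summed to a mean of 644508 a library. The means were 302983 and 312177 in SUM149PT CSCs and non-CSCs and 321277 and 350381 in HCC1937 CSCs and non-CSCs, so scaling matters more here. The SUM159PT libraries had 8534 to 8670 genes above 1 FPKM, against 11249 to 11997 in the other libraries. The part of this in the low keratins of SUM159PT was not tested. Against SUM149PT CSCs, 17 of 22 keratins were called, 5 higher and 12 lower, where 63.5% of 15788 genes were called, 20% higher and 43.5% lower. Against HCC1937 CSCs, 15 of 22 were called, 4 higher and 11 lower, where 65.6% were called, 18.4% higher and 47.2% lower. The keratin medians were -1.74 and -1.26, and those of all genes -0.66 and -0.88. Those all-gene medians moved by -1.05 and -0.98 under TPM rescaling, 0.30 and 0.50 under upper quartile scaling and 0.68 and 0.90 under quantile normalization. TPM rescaling called 16 of 26 keratins tested (1 higher, 15 lower) and 22 of 26 (3 higher, 19 lower) in that order. With that scaling 64.6% and 69.2% of all genes were called, and 11.2% and 13.2% of those calls were higher.

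KRT75 was at 142, 157 and 149 FPKM in SUM159PT, the third highest keratin there and above every library of the other groups. Its log2 difference was 2.71 (SE 0.14, adjusted p = 1.88e-07) against SUM149PT CSCs and 9.34 (SE 0.14, adjusted p = 5.22e-10) against HCC1937 CSCs. KRT7 stood at 1013, 896 and 1031 FPKM, the highest keratin of SUM159PT, with log2 differences of 1.69 and 1.18, the second of which changed sign under quantile normalization, as did the KRT6A difference against HCC1937 CSCs. KRT8 had 134, 130.4 and 131 FPKM and KRT18 156, 145 and 158 FPKM. Both were above every SUM149PT CSC library and below every HCC1937 CSC library, and the KRT18 difference against HCC1937 CSCs changed sign under upper quartile scaling. The KRT8 and KRT18 differences against HCC1937 CSCs, not called as reported, were called lower under TPM rescaling and under quantile normalization. KRT10, KRT6C and KRT34 also changed sign under some scaling, in differences that were not called. KRT80 was at 64.3, 63.6 and 68.9 FPKM, and its difference of 0.37 against SUM149PT CSCs changed sign under TPM rescaling and quantile normalization.

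The basal and activation keratins were low in SUM159PT. KRT5 was at 1.41, 1.46 and 1.15 FPKM, KRT14 at 0.244, 0.104 and 0.234 FPKM and KRT17 at 1.17, 1.05 and 1.23 FPKM. KRT15 and KRT16 ranged over 0.0911 to 0.135 and 0.238 to 0.405 FPKM, and KRT19 was at 0.286, 0.428 and 0.530 FPKM. KRT5, KRT14, KRT15, KRT16 and KRT17 were called lower in both comparisons, with log2 differences from -1.67 for KRT14 to -5.73 for KRT17 against SUM149PT CSCs, and from -3.18 for KRT5 to -8.57 for KRT14 against HCC1937 CSCs. Against SUM149PT CSCs, quantile normalization lost the calls of KRT5, KRT14, KRT6A and KRT7, a pseudocount of 1 those of KRT14, KRT4 and KRT6C, and TPM rescaling those of KRT7, KRT8, KRT18 and KRT86. Against HCC1937 CSCs, quantile normalization lost KRT6A, KRT7 and KRT34, TPM rescaling KRT7, and a pseudocount of 1 KRT9 and KRT13. KRT19 was called lower than in SUM149PT CSCs (-6.38), and its difference from HCC1937 CSCs was under the fold limit (-0.95) and changed sign under quantile normalization. That difference from HCC1937 CSCs was called under TPM rescaling, with a pseudocount of 0.01, and without HCC1937 CSC replicate 3 or SUM159PT replicate 3. The luminal class made up 83.8% of SUM159PT keratin FPKM, of which KRT7 was 64.8% and KRT8, KRT18 and KRT19 together 18.9%, and basal keratins made up 0.186%. KRT9 and KRT13 were listed at 0 in all 3 libraries.

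The keratin genes lie in 2 clusters of GRCh38.p14. Chromosome 12 holds 27 members between 52168996 and 52952906, the 26 type II genes and KRT18, and chromosome 17 holds the other 28, all type I, between 40654665 and 41624575. KRT75, which rose in SUM149PT CSCs, sits next to KRT6B, which fell, with KRT82 on its other side. KRT8 and KRT18 overlap in their annotated spans.

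Genes that work with keratins were taken as lists, to be read beside all genes tested, of which 12.8% were called higher and 22.1% lower in SUM149PT CSCs (median -0.11) and 2.71% higher and 6% lower in HCC1937 CSCs (median -0.03). Of 10 linkers that tie filaments to desmosomes and other structures, 1 was called higher and 7 lower in SUM149PT CSCs (median -2.50), and 0 higher and 7 lower in HCC1937 CSCs (median -1.32). PKP1, a desmosomal plaque gene, was at 1.44, 1.19 and 1.25 FPKM in SUM149PT CSCs and 29.6, 31.6 and 30.9 FPKM in non-CSCs (-4.47), and in HCC1937 at 5.99, 6.20 and 6.37 FPKM and 6.53, 7.34 and 7.85 FPKM, a difference not called (-0.22, adjusted p = 0.131). DSP, which anchors keratin at desmosomes, was at 9.07, 11.4 and 11.8 FPKM in HCC1937 CSCs and 34.6, 34.0 and 39.4 FPKM in non-CSCs (-1.74), and was also called in SUM149PT (-2.69). JUP, another plaque gene, was at 63.1, 61.3 and 60.1 FPKM against 158, 164 and 163 FPKM in HCC1937 (-1.39), and was under the fold limit in SUM149PT (-0.91). All PKP1, DSP and JUP values above were lower in CSCs without overlap. Of 16 other intermediate filament genes, 11 were tested in each line, with 1 called higher and 6 lower in SUM149PT (median -1.14) and 2 higher and 0 lower in HCC1937 (median 0.13).

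VIM, the filament gene of mesenchymal cells, was at 2008, 2187 and 2075 FPKM in SUM149PT CSCs and 226, 222.05 and 284 FPKM in non-CSCs, a log2 difference of 3.11 (SE 0.11, adjusted p = 6.27e-06). HCC1937 had 1012, 882 and 857 FPKM and 121, 187 and 160.2 FPKM, a log2 difference of 2.57 (SE 0.18, adjusted p = 0.000502). SUM159PT had 1091, 1082 and 1062 FPKM. VIM over summed keratin FPKM was 3.19, 3.33 and 3.35 in SUM149PT CSCs and 0.0543, 0.0549 and 0.0699 in non-CSCs. The same ratio was 0.703 to 0.748 in HCC1937 CSCs, 0.0377 to 0.0582 in non-CSCs and 0.677 to 0.762 in SUM159PT, so VIM exceeded all keratins together only in SUM149PT CSCs. INA, another filament gene, was called lower in SUM149PT CSCs (-3.98). LMNA, of the nuclear lamina, had log2 differences of 0.56 and -0.05, the second with an adjusted p of 0.695. Of 13 transcription factors known to act on keratin genes, 1 was called higher and 7 lower in SUM149PT (median -1.90), and 0 higher and 6 lower in HCC1937 (median -1.70), to be set beside the shares and medians of all genes given above. OVOL1 had the largest called change in both lines (-4.45 and -2.96), and ELF3, above 100 FPKM in a group, was called lower in both (-2.54 and -2.40). The factor called higher in SUM149PT was TP63 (2.24), at 12.1, 10.7 and 11.7 FPKM in CSCs and 2.17, 2.12 and 2.81 FPKM in non-CSCs. In HCC1937 TP63 went the other way, at 3.30, 3.34 and 3.01 FPKM in CSCs and 5.94, 5.58 and 5.61 FPKM in non-CSCs.

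Markers were set beside the keratin values. The epithelial genes EPCAM (-4.44 in SUM149PT and -2.23 in HCC1937) and CDH1 (-4.52 and -2.29) were called lower in CSCs, as was CD24 (-4.15 and -2.67), on which cells were sorted. PGR, one of the receptor genes behind the triple negative label, had a mean of 0.00101 FPKM or less in the groups. ESR1 had means of 0.0743, 0.970, 0.393, 1.66 and 0.00687 FPKM in SUM149PT CSCs and non-CSCs, HCC1937 CSCs and non-CSCs, and SUM159PT. ERBB2 ranged over 3.39 to 3.80, 6.16 to 7.02, 9.81 to 10.5 and 16.4 to 18.3 FPKM in the first 4 of these groups, with a mean of 19.1 FPKM in SUM159PT. CD44, the other sort marker, differed by 0.39 and 0.12. The 8 markers of other cell types summed to 248 to 254 FPKM in SUM149PT CSCs and 97.9 to 106 FPKM in non-CSCs. Their most abundant gene in SUM149PT CSCs was COL1A1, at 216, 219 and 213 FPKM against 46.0, 49.5 and 51.7 FPKM in non-CSCs. Of the 8, COL1A1 (2.14), COL3A1 (2.26) and PDGFRB (3.10) were called higher in SUM149PT CSCs and CD68 (-1.57), PECAM1 (-1.20) and VWF (-2.48) lower, and none was called in HCC1937. HCC1937 sums were 51.4 to 56.2 FPKM in CSCs and 47.1 to 47.9 FPKM in non-CSCs, most of it CD68. CD3E was listed at 0 as a mean in every group, PTPRC had means of at most 0.0660 FPKM, and the part of the moving markers in the keratin differences was not tested.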

How the data were processed

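Poly(A)-selected RNA of 15 libraries, 3 in each of 5 groups, was read from the FPKM table that the authors deposited, and 0 of its sample columns were left unused. The submitters' processing notes name Bowtie2 and GRCh38. The tool that made the FPKM is not stated. Groups were taken from the labels. Values were tested as log2(FPKM + 0.1) with limma 3.58.1 in R 4.3.3, on genes whose mean over the fitted libraries reached 0.1 FPKM, with p adjusted by Benjamini-Hochberg over all genes tested. CSCs were compared with non-CSCs in the 6 libraries of each line. The lines, and the difference of their CSC effects, were compared in 12 libraries, and SUM159PT in the 9 libraries labelled cancer stem cells. Keratin shares and ratios were compared by exact two-sided permutation tests. Sums, ratios and plots were made with Python 3.11.15, pandas 2.3.3, numpy 2.4.6 and matplotlib 3.10.9. The limma calls were tested on simulated data. Keratins are named where a group mean reached 1 FPKM. Of each list, the called gene with the largest change in each line and genes with a group mean of at least 100.0 FPKM are named. KRT4, KRT78, TP63 and the listed markers fall outside that rule and were named after their values were seen, or as markers. The lists were keratin classes, linkers of keratin filaments, other intermediate filament genes, transcription factors and markers. Members and lists were chosen with earlier results of these data known. Alternatives were other pseudocounts, minimum levels, scalings, test settings and limits, a replicate block and leaving out each library. Promoter sequences came from RefSeq and transcripts from GENCODE release 29.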

Additional observations from a re-analysis of the deposited data

Results flagged for a closer look

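The CSC effect differed between the lines for 16 of 23 keratins tested. The test was an interaction in limma over 12 libraries (adjusted p at most 0.05 and a difference of at least 1). Of all 16451 genes tested, 30.4% were called, 12.2% higher and 18.2% lower. Values are the SUM149PT log2 effect minus the HCC1937 effect. KRT34, which fell in SUM149PT CSCs and rose in HCC1937 CSCs, differed by -5.13 (adjusted p = 8.48e-08). The fall in SUM149PT was the larger for KRT5 (-3.30, adjusted p = 7.15e-09), KRT81 (-3.09, adjusted p = 4.29e-08) and KRT19 (-2.46, adjusted p = 4.04e-06). Among activation keratins it was larger for KRT6C (-2.65), KRT6B (-2.37), KRT6A (-2.18) and KRT16 (-1.98). The size for KRT6C is not firm. Its HCC1937 CSC values, 0.0292 to 0.0511 FPKM, lay under the added 0.1, which understates its fall there. As ratios of means, non-CSC over CSC, KRT6C had 23.7 in SUM149PT and 9.25 in HCC1937. The ratios were 24.6 and 5.44 for KRT6A, 28.9 and 5.76 for KRT6B, and 13.9 and 3.41 for KRT16. KRT86 (-2.28), KRT9 (-1.999) and KRT17 (-1.80) had the same sign. The difference was positive for KRT75 (2.63, adjusted p = 1.88e-05), which rose in SUM149PT, and for KRT15 (2.25, adjusted p = 1.35e-07), which fell further in HCC1937, and KRT13 (2.31, adjusted p = 0.00455), which fell in HCC1937 and missed the p limit in SUM149PT. KRT80 (1.11, adjusted p = 9.6e-07) and KRT10 (1.06, adjusted p = 0.00166) were higher in SUM149PT CSCs than in its non-CSCs, while HCC1937 KRT80 went the other way. The KRT10 difference was under 1 without HCC1937 CSC replicate 3 (0.92) or HCC1937 non-CSC replicate 2 (0.95), and TPM rescaling and a pseudocount of 1 also took it below 1. KRT13 missed the p limit with a pseudocount of 0.01 (adjusted p = 0.09) and KRT9 with a pseudocount of 1 (adjusted p = 0.0806). The sign of all 16 was the same under the 3 scalings tried.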

How the results depend on the processing

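Of 127 recomputed counts of called keratins, 126 stayed within 1.5 times the reported count. Leaving out each library in turn gave 15 to 18 called in SUM149PT, 13 to 15 in HCC1937, 16 to 18 for the difference between their CSC effects, 16 to 18 and 18 to 19 for the lines within CSCs and non-CSCs, and 16 to 17 and 14 to 16 for SUM159PT. A replicate block on the replicate number of the titles gave 17, 13, 16, 18, 18, 17 and 15 in that order. Deviations of same-numbered CSC and non-CSC libraries correlated at 0.136, 0.0287 and 0.120 across genes in SUM149PT and at -0.158, -0.0504 and -0.0355 in HCC1937. SUM149PT CSC replicates 1 and 3 correlated best with their own number, and no HCC1937 CSC replicate did. Libraries were not paired in the reported fits. With 3 libraries a group, these correlations cannot show whether the samples were paired. With the adjusted p limit at 0.0001, limma called 0 keratins in HCC1937. The smallest adjusted p of a keratin there was 0.000128, 18 keratins had an unadjusted p under 0.05, and 0 of all genes passed. Scaling moved the share of calls that were higher by more than 10 points in 5 comparisons: from 36.5% to 51.1% in SUM149PT and from 40.2% to 50.7% for the difference between lines under quantile normalization, from 31.1% to 42.1% in HCC1937 under TPM rescaling, from 31.5% to 11.2% (TPM rescaling) and 50.4% (quantile normalization) for SUM159PT against SUM149PT CSCs, and from 28.1% to 13.2%, 39.8% (upper quartile scaling) and 49.3% against HCC1937 CSCs. The cause was not tested.

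The share of keratins fell by 1.10 points in SUM149PT CSCs and by 0.482 in HCC1937 CSCs. Leaving out each library gave -1.11 to -1.08 and -0.501 to -0.464, an alternative chosen after seeing the data. Without KRT6A, KRT6B, KRT6C, KRT16 and KRT17 the differences were -0.878 and -0.385, without KRT7 they were -1.01 and -0.372, and without mitochondrial and ribosomal protein genes in the sum -1.17 and -0.522, which follows from the genes removed. The type I to type II ratio differed by -0.560 and -0.143, and by -0.568 to -0.556 and -0.150 to -0.139 on leaving out each library. Without the same 5 keratins it differed by -0.497 and -0.0811. Without KRT18 and KRT7, the most abundant of each type over the 15 libraries though not in SUM149PT, it differed by -0.401 in SUM149PT and reversed to 0.0240 in HCC1937.

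Single keratins were recomputed here for the CSC effect in each line and its difference between lines. Of 1088 such values (62 results), 1068 stayed on the same side of the p limit, 0 past the limit reversed, 11 lost the limit and 9 gained it, in 9 results. The sign changed in 13 values, none past the p limit as reported or recomputed, all of them differences of the CSC effect between lines, for KRT7, KRT14 and KRT79. Outside this set, the called KRT6A and KRT7 differences of SUM159PT from HCC1937 CSCs changed sign under quantile normalization. Of the gains, 2 came from fitting all 15 libraries together, chosen after seeing the data: KRT13 in SUM149PT (adjusted p = 0.021) and KRT10 in HCC1937 (adjusted p = 0.0323). KRT13 in SUM149PT, at 0.11 as reported, also passed with the replicate block (0.0459) and without non-CSC replicate 1 (0.0434). In HCC1937, KRT10 passed without CSC replicate 1 (0.0456), and KRT9 (0.02) and KRT75 (0.0273) without CSC replicate 3. The KRT79 difference between lines passed with a pseudocount of 1 (0.00341) and under quantile normalization (0.0364). Depth is not known from FPKM, so its limit on the low keratins cannot be given.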

Other observations

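The table also lists 104 keratin pseudogenes, which the rule for members does not take in. Of these, 54 were listed at 0 in all 15 libraries and 12 had a group mean of at least 1 FPKM. KRT8P3 had the highest level, with group means of 2.24 FPKM in SUM149PT CSCs, 8.31 FPKM in SUM149PT non-CSCs, 11.1 FPKM in HCC1937 CSCs, 27.3 FPKM in HCC1937 non-CSCs and 8.35 FPKM in SUM159PT. KRT8P3 was thus lower in the CSCs of both sorted lines, as KRT8 was. Reads could be split between a keratin and its pseudogenes, so these levels may not be separate readings, and this was not tested. Of the 50-base stretches of KRT18, 9.17% occurred in KRT18P11, while 1.88% of those of KRT8 occurred in any other gene. Summed over all entries, pseudogene FPKM was 1.47% to 1.76% of keratin FPKM in SUM149PT CSC libraries and 0.734% to 0.783% in non-CSC libraries. It was 2.91% to 3.24% in HCC1937 CSCs, 2.98% to 3.03% in HCC1937 non-CSCs and 1.30% to 1.57% in SUM159PT.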
